A study of Mastomys natalensis with 3 samples.

Results

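The Egr and Nr4a immediate early factors were followed as every probe set annotated to Egr1, Egr2, Egr3, Nr4a1, Nr4a2 or Nr4a3. These 6 genes had 13 probe sets among the 8740 non-control probe sets of a rat expression array. Egr1 had 4 of them, Nr4a3 had 3, Nr4a1 and Nr4a2 had 2 each, and Egr2 and Egr3 had 1 each. They are among 4736 genes with a probe set of their own. The genes were chosen by the intensities themselves: Egr1 was selected on its far brighter reading after 8 weeks of loxtidine, and Nr4a1 on its higher reading in the carcinoid than after 16 weeks. All values below are therefore a description, and no test was made.

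The RNA was from stomachs of Mastomys natalensis, an African rodent in which gastric carcinoids arise readily. The first group, called the carcinoid here, was from Mastomys that spontaneously developed a gastric carcinoid of ECL cells. ECL cells are enterochromaffin-like cells, which store histamine in the acid-secreting mucosa. The sample descriptions did not say whether the tumour itself was sampled. The other animals had received loxtidine, an antagonist of the histamine receptor on parietal cells, for 16 weeks or for 8 weeks. Each group was a cell population described in the labels as enriched for ECL cells, and each was measured on 1 array. The labels gave no strain, age, dose, untreated group or number of animals, and the source field read gastric mucosa for the carcinoid and 16-week samples but gastric ECL cells for the 8-week sample.

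Egr1, Egr2 and Egr3 are zinc finger transcription factors that bind GC-rich promoter sites. Nr4a1, Nr4a2 and Nr4a3 are orphan nuclear receptors that act without a known hormone ligand. Genes of both families are transcribed within minutes of growth factor, calcium, cyclic AMP or stress signals, without new protein synthesis, and their transcripts decay fast. In cultured gastric cells the gastrin receptor signals through the same kinase cascades that drive such genes.

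Intensities are on the linear scale of the deposited table, and differences are log2 differences after quantile normalization, which gives the arrays one common distribution. The array medians before it were 13.8 (carcinoid), 13.1 (16 weeks) and 10.1 (8 weeks). A floor of 12.4, the pooled median of the normalized values, separated a fold (both arrays at or above it) from a bound (1 array below it, written "at least"). Of 19 bacterial and yeast control probe sets with no target in this RNA, 2, 3 and 2 reached the floor in that order of arrays, and the brightest of them read 21.8, 18.7 and 30.2 after normalization. Values under these are not told apart from background, and a fold that rests on one is uncertain in size. The only measure of error was the spread between probe sets of one gene. On the log2 scale it came to 0.79 between 16 and 8 weeks (over 410 genes), to 0.82 between the carcinoid and 8 weeks (over 395) and to 0.62 between the carcinoid and 16 weeks (over 457), without any variation between animals. The GAPDH control at the 5' end of the transcript read 343.5, 363.5 and 37.3 on the carcinoid, 16-week and 8-week arrays, and that at the 3' end 792.7, 520.4 and 333.8. The sources used here do not place the Egr and Nr4a probe sets along their transcripts, and the part of this difference between arrays in the results below was not tested.

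**Figure D1:**
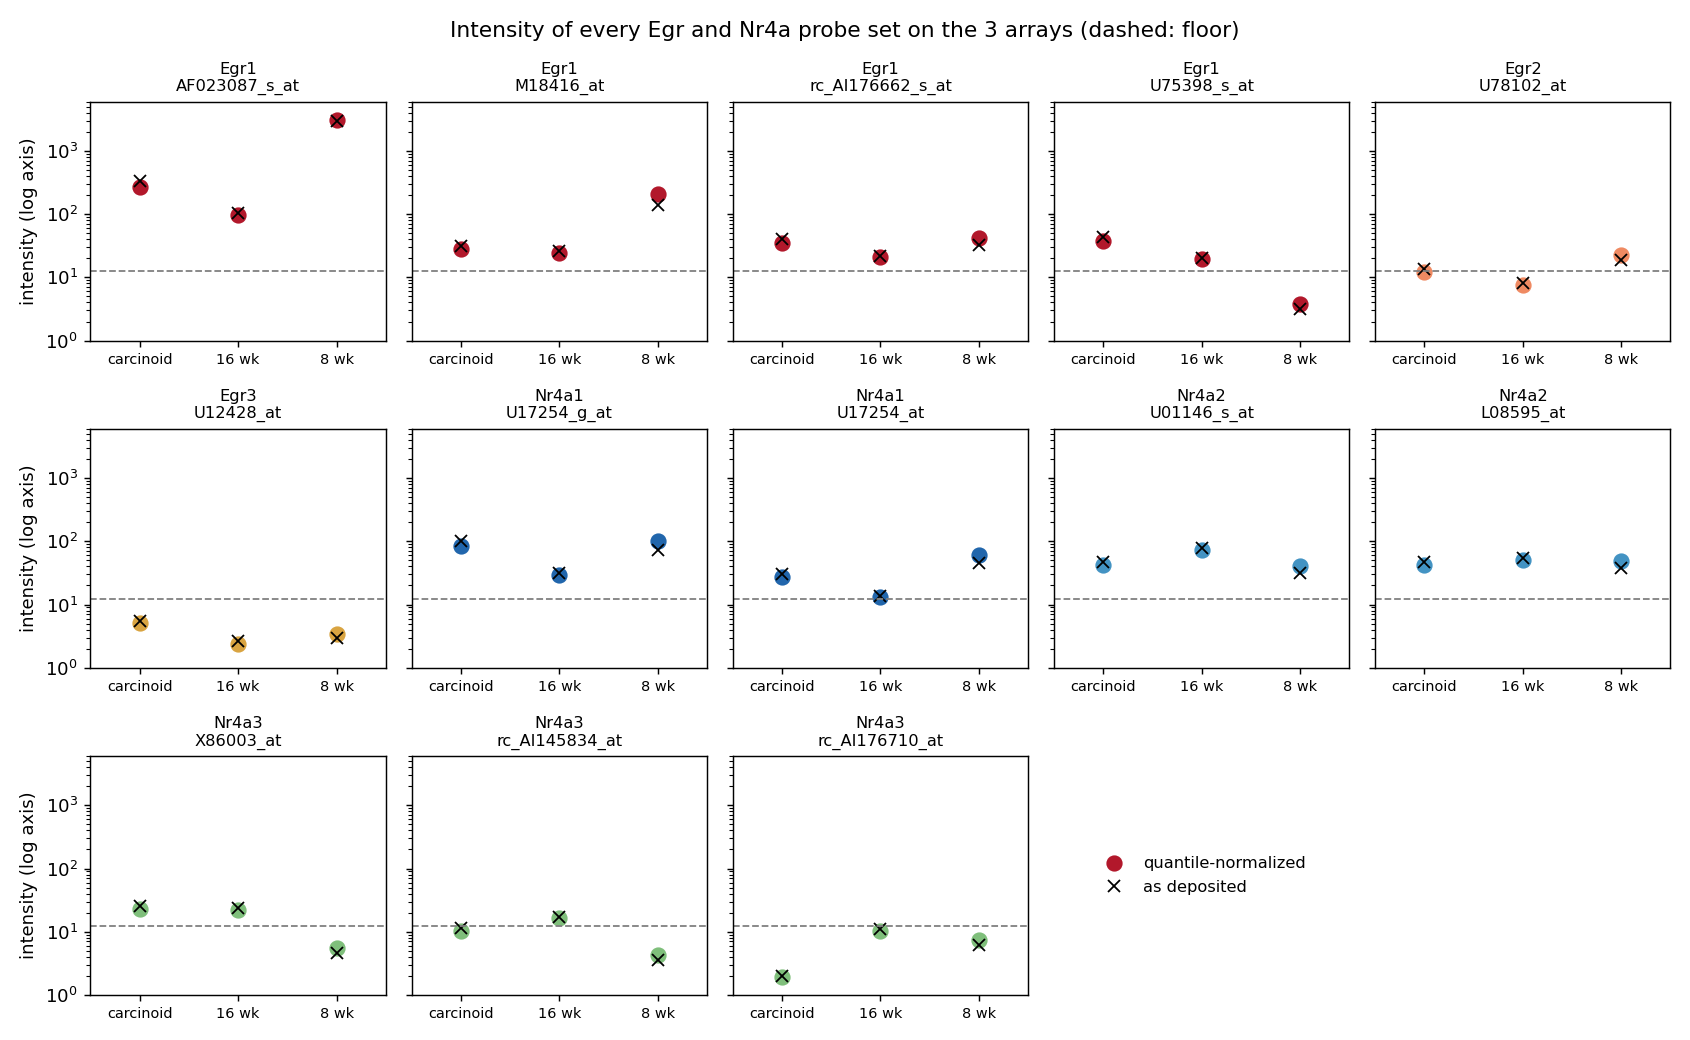
Intensity (log axis) of each of the 13 Egr and Nr4a probe sets on the carcinoid, 16-week and 8-week arrays, with circles for quantile-normalized and crosses for deposited values and a dashed line at the floor of 12.4. Egr1 reached 2966 as deposited on the 8-week array with its brightest probe set, whereas the Egr3 values lay under the floor on every array.

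Egr1, the founding member of its family, had the widest range of the 6 genes. Its brightest probe set, AF023087_s_at, read 337.2 in the carcinoid, 102.8 at 16 weeks and 2966 at 8 weeks as deposited. The 8-week array was thus highest, the carcinoid array between and the 16-week array lowest. After normalization it was 32.4-fold lower at 16 weeks than at 8 weeks (log2 difference -5.02), and among 3164 probe sets with a fold 2 were lower by as much, itself included. In the carcinoid it was 11.8-fold lower than at 8 weeks (log2 difference -3.56), a size reached downward by 3 of 3122 probe sets. Between the carcinoid and 16 weeks it was 2.75-fold higher in the carcinoid (log2 difference 1.46), a size reached upward by 63 of 3311 probe sets, or 1.90%. All 3 differences were larger than the spread between probe sets of one gene. Because Egr1 was chosen for its high 8-week value, this is no support for the differences against 8 weeks. The probe sets of Egr1 itself lay up to 5.66 apart on the log2 scale for 16 against 8 weeks.

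The second Egr1 probe set, M18416_at, read 31.0 in the carcinoid, 26.3 at 16 weeks and 138.4 at 8 weeks. It shared the high 8-week value, with an 8.44-fold lower value at 16 weeks and a 7.52-fold lower value in the carcinoid, but the carcinoid and 16-week arrays were only 1.12-fold apart. That last difference, 0.17 on the log2 scale, was inside the spread.

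The remaining Egr1 probe sets did not show the high 8-week value. The probe set rc_AI176662_s_at, made from an expressed sequence tag, read 40.1 in the carcinoid, 22.1 at 16 weeks and 32.5 at 8 weeks. It was 1.995-fold lower at 16 weeks than at 8 weeks, and its carcinoid value was 1.18-fold lower than at 8 weeks after normalization but higher as deposited (log2 difference 0.30). The probe set U75398_s_at read 43.3 in the carcinoid, 20.5 at 16 weeks and 3.2 at 8 weeks, so that the carcinoid was highest and the 8-week value lowest and under the floor. Its carcinoid value was at least 3.05-fold and its 16-week value at least 1.56-fold higher than at 8 weeks. The Egr1 probe sets thus ran from -5.02 to 0.64 for 16 against 8 weeks and from -3.56 to 1.61 for carcinoid against 8 weeks. The medians over the 4 probe sets were -2.04 and -1.58, well short of the differences of the brightest. For carcinoid against 16 weeks the 4 probe sets lay on one side, from 0.17 to 1.46, with the carcinoid higher on each, also as deposited and with scaling to a common median. Which of these probe sets best matches the Mastomys transcript was not tested.

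Egr2, which acts in Schwann cells and lymphocytes, read 13.6 in the carcinoid, 8.2 at 16 weeks and 18.6 at 8 weeks on its only probe set. Only the 8-week value stood above the floor after normalization, so that the gene was at least 1.82-fold lower in the carcinoid and at 16 weeks than at 8 weeks. The order of arrays was that of the brightest Egr1 probe set, but at intensities where empty controls were also found. Egr3, a relative that acts in muscle spindles and lymphocytes, read 5.5, 2.6 and 2.9 on the carcinoid, 16-week and 8-week arrays. No level of Egr3 could be told from background.

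Nr4a1, also called Nur77, was the lowest at 16 weeks on both of its probe sets, which were named for the same GenBank entry and so are not independent. The brighter, U17254_g_at, read 99.8 in the carcinoid, 31.1 at 16 weeks and 74.0 at 8 weeks. It was 2.89-fold higher in the carcinoid than at 16 weeks (log2 difference 1.53), a size reached upward by 47 of 3311 probe sets, or 1.42%. It was 3.55-fold lower at 16 weeks than at 8 weeks (log2 difference -1.83), reached downward by 54 of 3164 probe sets. The other, U17254_at, read 30.3 in the carcinoid, 13.8 at 16 weeks and 45.3 at 8 weeks. It was 2.09-fold higher in the carcinoid than at 16 weeks and 4.61-fold lower at 16 weeks than at 8 weeks. Its 16-week value was close to the floor and under the brightest control with no target, so both folds of U17254_at are uncertain in size. With the floor raised to 30.0, its difference between 16 and 8 weeks shrank to a bound of -0.998 on the log2 scale. The differences of both probe sets exceeded the spread between probe sets of one gene. Nr4a1 was chosen on its carcinoid value against 16 weeks, and both comparisons share the 16-week array, so this is no support.

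The order of Nr4a1 between the carcinoid and 8 weeks was not settled. After normalization U17254_g_at was 1.23-fold lower in the carcinoid, but as deposited it was 1.35-fold higher there (log2 difference 0.43), and U17254_at was 2.21-fold lower in the carcinoid. The first value was inside the spread of 0.82. The second, a log2 difference of -1.14, was outside it, but as deposited U17254_at was at -0.58, smaller than that spread.

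Nr4a2, or Nurr1, a receptor needed for midbrain dopamine neurons, had no 2-fold difference after normalization. Its probe set U01146_s_at read 47.4 in the carcinoid, 77.9 at 16 weeks and 31.4 at 8 weeks. The 16-week value was the highest, 1.81-fold above 8 weeks (2.48-fold as deposited), and the carcinoid was 1.75-fold below 16 weeks. The log2 differences of 0.86 and -0.81 were just past the spread of 0.79 and past that of 0.62. The second probe set, L08595_at, read 47.7 in the carcinoid, 54.0 at 16 weeks and 37.5 at 8 weeks. As deposited it gave the same order of arrays, but its normalized values were at most 1.21-fold apart, which was inside the spread. The carcinoid and 8-week arrays were 1.03-fold and 1.16-fold apart on the 2 probe sets, in opposite directions after normalization, with the carcinoid higher on both as deposited.

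Nr4a3, or Nor1, had its lowest value at 8 weeks on 2 of its 3 probe sets. X86003_at read 25.9 in the carcinoid, 23.7 at 16 weeks and 4.6 at 8 weeks, so that the carcinoid was at least 1.86-fold and the 16-week array at least 1.80-fold higher than the 8-week array. The carcinoid and 16-week values were 1.04-fold apart. The probe set rc_AI145834_at read 11.5, 17.2 and 3.5 in the order carcinoid, 16 weeks and 8 weeks. It reached the floor at 16 weeks alone, still under the brightest control with no target, so no order of arrays is read from it. The third, rc_AI176710_at, read 2.0, 11.0 and 6.1 and reached it nowhere. With the floor at 4.2, X86003_at was at least 2-fold higher on both of the other arrays than at 8 weeks (log2 differences 2.05 for the carcinoid and 2.002 for 16 weeks). Its 8-week value lay under the brightest control with no target, so the size of these differences is uncertain.

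**Figure D2:**
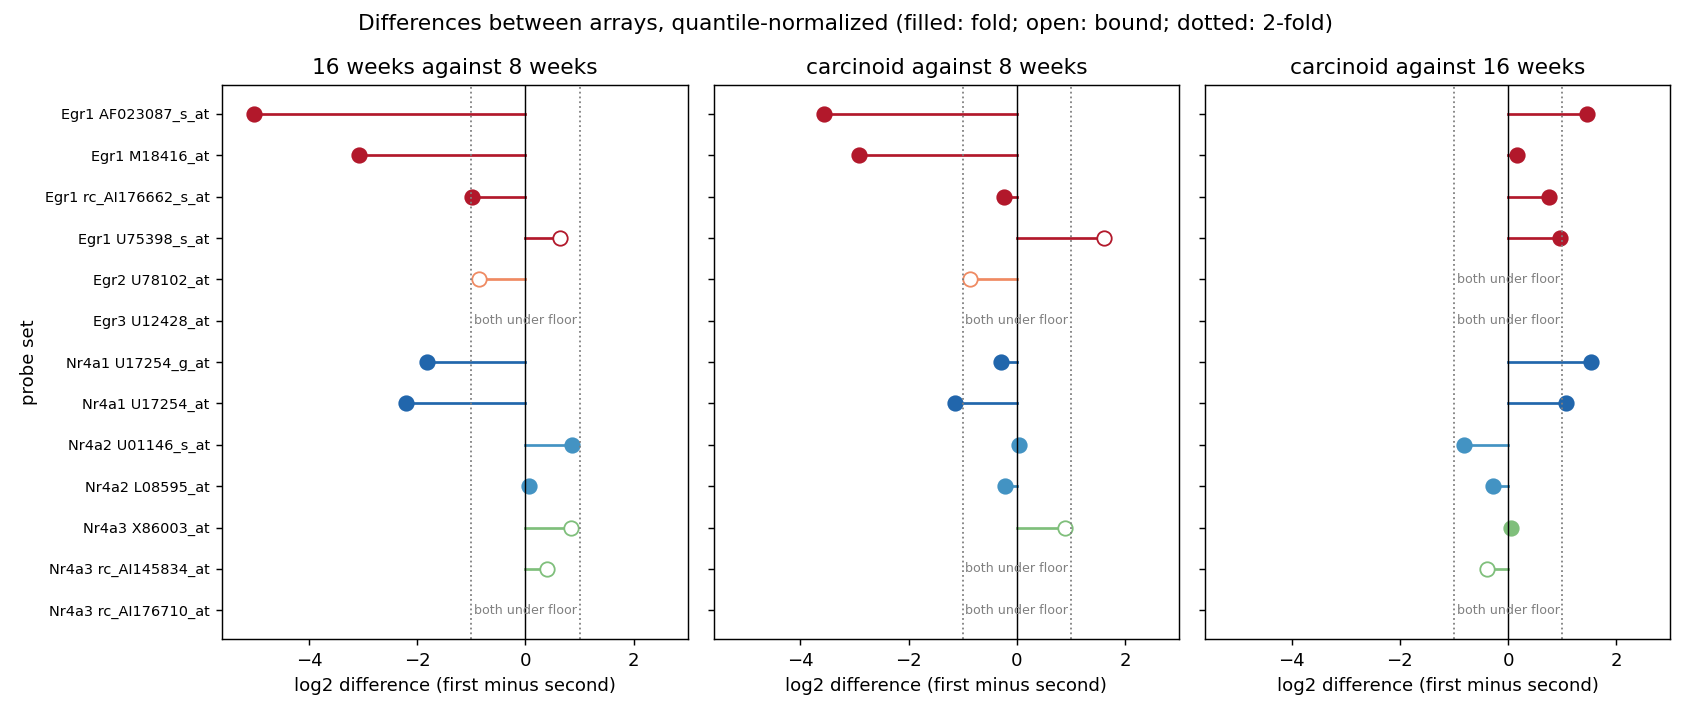
Log2 difference of each Egr and Nr4a probe set (rows) in the 3 comparisons (panels), with filled points for folds, open points for bounds and dotted lines at 2-fold. The largest differences belonged to Egr1 AF023087_s_at, at -5.02 and -3.56 against 8 weeks, and 3 probe sets changed sign as deposited for carcinoid against 8 weeks (rc_AI176662_s_at, U17254_g_at and L08595_at).

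Across the 13 probe sets, 7 were at or above the floor on all 3 arrays, 4 on only some, and 2 on none. For 16 against 8 weeks, 4 of 11 with a value reached a 2-fold lower value at 16 weeks and 0 a 2-fold higher one, where 13% of all 5586 probe sets with a value were that much lower and 13.9% higher. Those 4 were 2 probe sets of Egr1 and both of Nr4a1. For carcinoid against 8 weeks, 3 of 10 were that much lower in the carcinoid (2 of Egr1 and 1 of Nr4a1) and 1 was that much higher (Egr1 U75398_s_at), beside 14% lower and 14.6% higher among 5620 probe sets. For carcinoid against 16 weeks, 3 of 10 were at least 2-fold higher in the carcinoid (1 of Egr1 and both of Nr4a1) and 0 lower, beside 9.38% higher and 9.67% lower among 5439 probe sets. Because these contrasts chose the genes, nothing is read from the shares. The median log2 differences of the probe sets with a value were -0.86, -0.27 and 0.46 in the 3 comparisons, against -0.01, -0.03 and 0.01 over all probe sets. The median of carcinoid against 8 weeks was 0.33 as deposited, where the median over all probe sets with a value was 0.42.

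**Figure D3:**
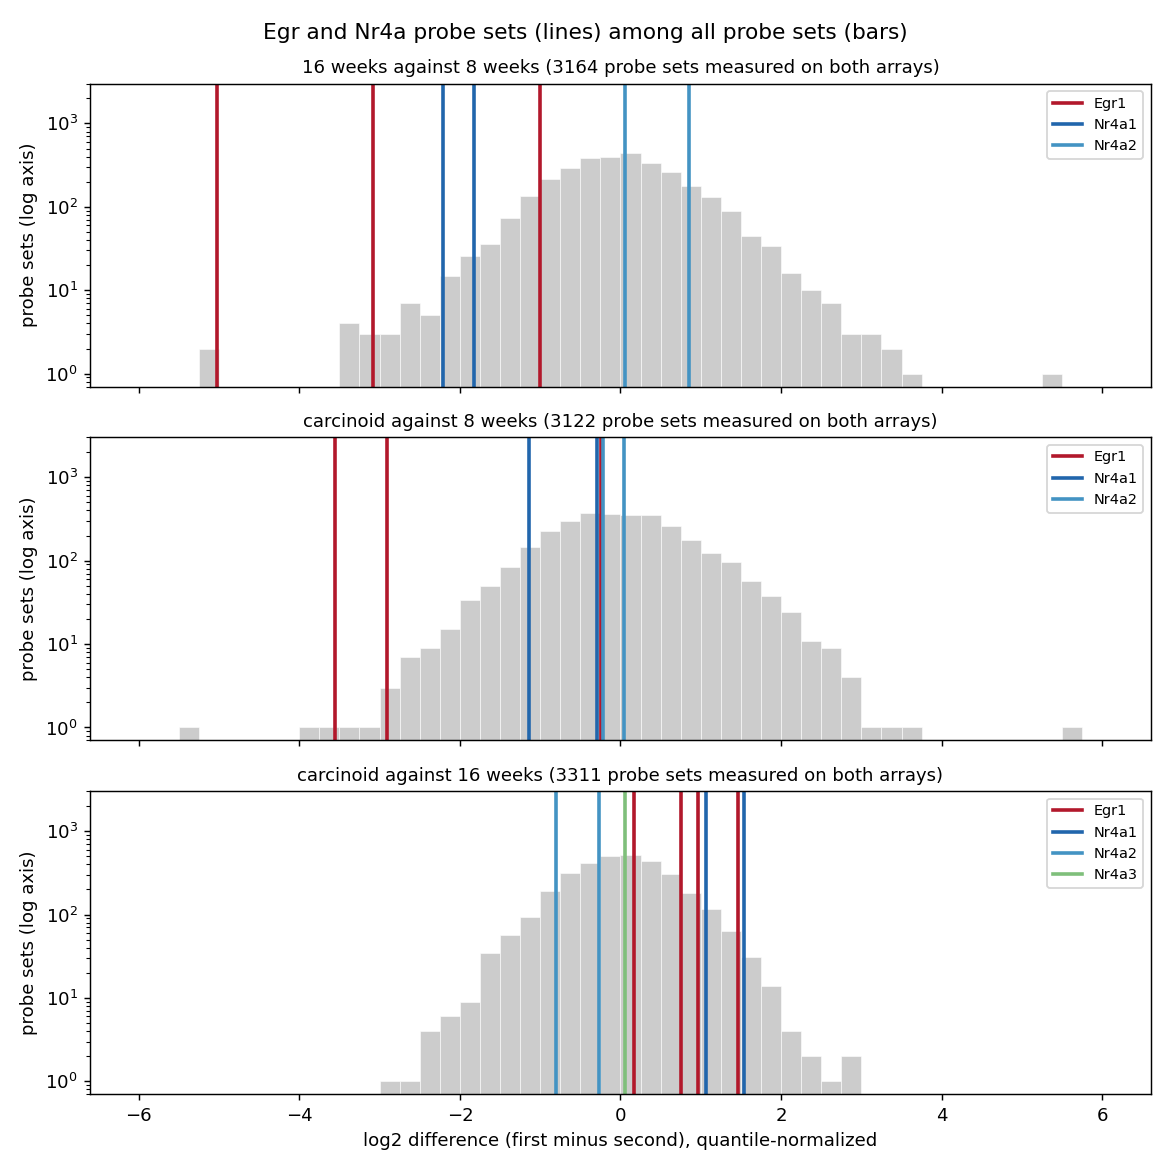
Number of probe sets (log axis, grey bars) by log2 difference between 2 arrays, for probe sets measured on both, with a coloured line at each Egr1, Nr4a1, Nr4a2 or Nr4a3 probe set that had a fold. In the top panel Egr1 lies at -5.02 and -3.08 in the sparse left tail, whereas the Nr4a2 lines at 0.06 and 0.86 lie within the bulk.

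The 8-week array that carried the high Egr1 value also differed from the others in markers of several cell types. Of 7 leukocyte markers on the array, 1, 3 and 6 reached the floor on the carcinoid, 16-week and 8-week arrays, and their summed deposited intensity was 48.0, 94.4 and 171.5. Most of the leukocyte values at the floor lay under the brightest control with no target. At 8 weeks only Cd74 and C1qb were above that control, and Cd8a was highest at 16 weeks. Of 6 endothelial markers, 2, 2 and 3 reached the floor, some of them (such as Pecam1) still under that control. Their sums were 72.3, 62.7 and 108.3, and Vwf and Sele lay under the floor on every array. The 7 fibroblast and matrix markers, of which 6, 6 and 5 reached it, summed to 573.1, 630.3 and 888.0, most of it from decorin. Of 13 ECL and neuroendocrine markers, 8, 8 and 9 reached it, with sums of 281.2, 326.0 and 296.1. After normalization the ECL sums were 249.6, 304.8 and 382.6, so that the 8-week array was highest. Hdc, the enzyme that makes histamine, read 3.4, 5.2 and 3.7 and lay under the floor throughout. The ECL label could thus not be checked by its defining enzyme. Other lists were lowest at 8 weeks as deposited. The 5 smooth muscle markers summed to 113.5, 81.5 and 27.4, with 3, 3 and 1 at the floor, and the same order held after normalization. The 4 mucous cell markers summed to 1991.6, 1206.9 and 789.9, and Muc5ac, a mucin of surface cells, read 265.6, 185.3 and 13. After normalization the mucous sums were 1601, 1137 and 1283, so that the 8-week array was no longer lowest. The 7 parietal cell markers summed to 2543.7, 2797.6 and 1658.1 as deposited but to 1949, 2607 and 2680 after normalization. None of the ECL, leukocyte, endothelial, fibroblast, smooth muscle, mucous or parietal markers was listed at 0, and their part in the Egr1 and Nr4a1 differences was not tested. Fewer cells of a type and less RNA per cell cannot be told apart in such samples.

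Genes with the profile closest to Egr1 across the 3 arrays were sought among 2161 probe sets at or above the floor on all of them, by the Euclidean distance of centred log2 values. With only 3 arrays a close profile is common, and the distance is a description. The nearest to Egr1 AF023087_s_at was Jun, a subunit of the AP-1 transcription factor, at a distance of 1.15, with deposited readings of 82.6 in the carcinoid, 43.0 at 16 weeks and 292.6 at 8 weeks. Then came the transcription factor Cebpb (distance 1.23), the NF-kappaB inhibitor Nfkbia (1.37), the clathrin adaptor subunit Ap2m1 (1.44) and the mRNA-decay factor Zfp36 (1.64). Of these, Jun, Cebpb, Nfkbia and Zfp36 are themselves immediate early genes. Each had its highest value at 8 weeks and its lowest at 16 weeks, as Egr1 did, but over a smaller range, and the 16-week readings of Cebpb (13.2) and Nfkbia (13.9) were close to the floor.

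The Nr4a1 profile had closer neighbours. The nearest to U17254_g_at were the Myc antagonist Mxi1 (distance 0.07), the lymphoid surface antigen gene Ly6c (0.08), the amyloid precursor-binding Apbb1 (0.16), the mucin-type glycosyltransferase Gcnt3 (0.17) and the Mediator subunit Med25 (0.20). Mxi1 read 41.7 in the carcinoid, 13.1 at 16 weeks and 36.4 at 8 weeks. The 16-week values of Mxi1, Ly6c, Apbb1 and Gcnt3 lay under the brightest control with no target. None of these neighbours was on the list of immediate early genes used here.

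Other immediate early genes were read beside the Egr and Nr4a genes, each by its brightest probe set. Of 46 listed, 31 were on the array and 28 had a value for 16 against 8 weeks, of which 10 had a 2-fold or larger difference with the lower value at 16 weeks and 2 with the higher value there, beside 12.9% lower and 14% higher of all 3345 genes. The median log2 difference was -0.71 (-0.25 as deposited), against 0.01 over all genes. For carcinoid against 8 weeks 11 of 28 were lower and 1 higher, beside 13.7% and 14.6% of 3370 genes, with a median of -0.67 (-0.19 as deposited) against -0.02. For carcinoid against 16 weeks 3 of 25 were higher and 3 lower, beside 9.41% and 9.29% of 3295 genes, with a median of 0.34 (0.36 as deposited) against 0.01.

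Egr1 lay below every gene of that list in both comparisons against 8 weeks. At 16 weeks against 8 weeks the nearest were Cebpb (log2 difference -3.46), Jun (-3.41), Nfkbia (-3.34) and Zfp36 (-2.89), against -5.02 for Egr1 and -1.83 for Nr4a1. In the carcinoid against 8 weeks Jun was at -2.61, Cebpb at -2.10, Junb at -1.90 and Nfkbia at -1.87, against -3.56 for Egr1. Other probe sets could change that order. The Jun probe set X17163cds_s_at, not its brightest, was at -5.19 and -5.28, but its 16-week and carcinoid values lay under the brightest control with no target. Smaller differences were also found, with Zfp36 X63369cds_at at -0.81 for 16 against 8 weeks and Junb X54686cds_at at -0.86 for carcinoid against 8 weeks. In the carcinoid against 16 weeks Nr4a1 (1.53) and Egr1 (1.46) lay beside Nfkbia (1.47) and Cebpb (1.36). The cytokine-signalling inhibitor Socs3 was at -2.25 and the stress-induced Gadd45a at -1.79, both with a carcinoid value under the brightest control with no target. Other Gadd45a probe sets ran from -0.44 to 0.68.

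**Figure D4:**
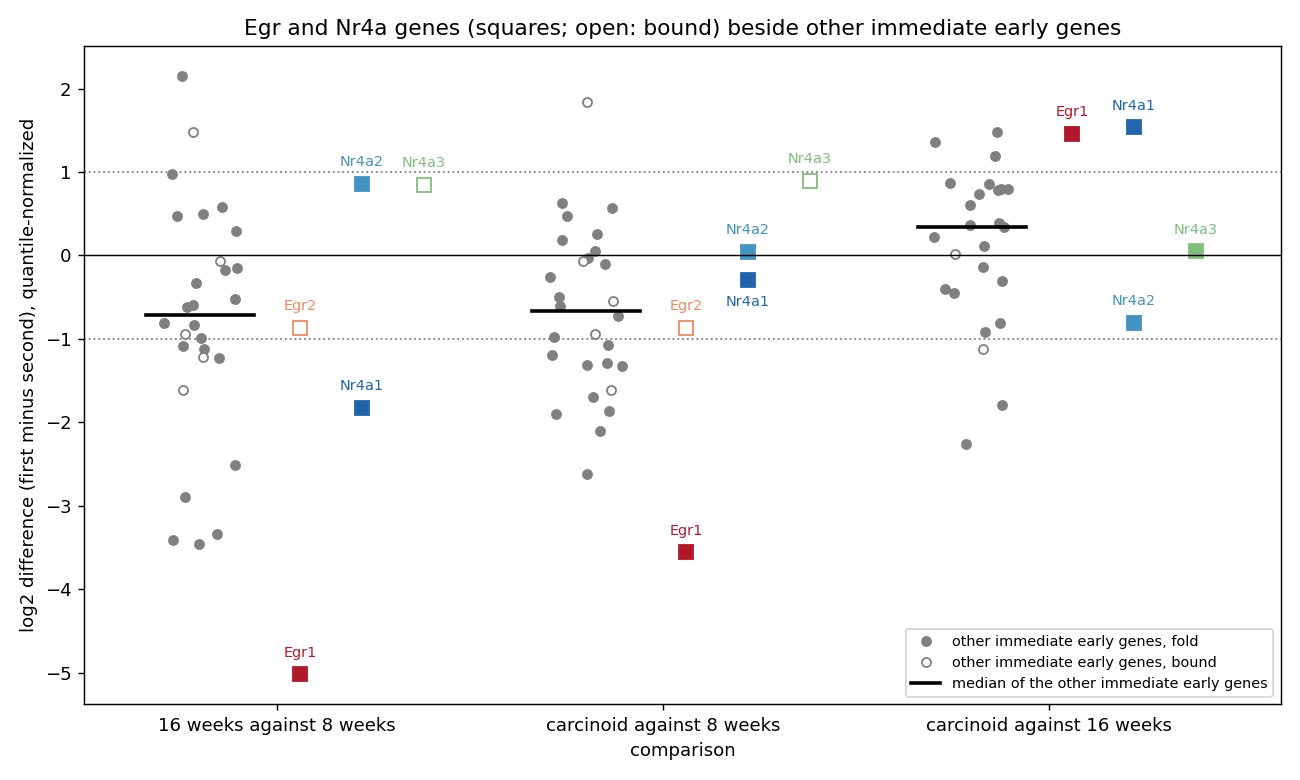
Log2 difference of the Egr and Nr4a genes by their brightest probe set (squares, open where a bound) beside other immediate early genes (grey points, open where a bound; black line, their median) in the 3 comparisons. Egr1 is lowest in both comparisons against 8 weeks, at -5.02 and -3.56, and Nr4a1 and Egr1 lie at 1.53 and 1.46 for carcinoid against 16 weeks; the Nr4a1 value for carcinoid against 8 weeks, -0.29 here, is 0.43 as deposited.

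Signalling genes upstream of Egr and Nr4a transcription were read next, and the shares over all genes given above for each comparison apply to this list and those that follow. Of 28 listed, 14 were on the array, and by the 2-fold rule 1 of 12 with a value was lower at 16 weeks than at 8 weeks and 1 was higher, beside 12.9% lower and 14% higher over all genes. The kinase Map2k2, which activates ERK, was 2.24-fold lower at 16 weeks by its brightest probe set, but the log2 differences of its other probe sets with a value were 1.05 and 0.99. The calcineurin subunit Ppp3ca was 2.01-fold higher. In the carcinoid, 4 of 11 were lower and 1 higher than at 8 weeks (median log2 difference 0.08), but as deposited 2 of 10 were lower and 4 higher (median 0.83), so the balance of this list depended on the scaling. Among the lower genes was Mef2d, a factor that drives Nr4a1 in T cells, which read 17.7 in the carcinoid, 78.0 at 16 weeks and 86.8 at 8 weeks. Its carcinoid value lay under the brightest control with no target. Mef2d and Nr4a1 therefore differed in opposite directions between the carcinoid and 16 weeks. In that comparison 0 of 11 genes of the list were higher by the 2-fold rule (1 as deposited), and Mef2d was the 1 gene that was lower. The gastrin receptor Cckbr read 40.2 in the carcinoid, 60.5 at 16 weeks and 54.7 at 8 weeks on its brightest probe set, and 3.0, 35.7 and 2.2 on the other.

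Cofactors of the Egr and Nr4a proteins were mostly dim. Of 7 on the array out of 12 listed, 5 had a value against 8 weeks. Nab1, a corepressor that binds Egr1, read 30.4 in the carcinoid, 15.0 at 16 weeks and 9.4 at 8 weeks, which made the carcinoid at least 2.19-fold higher than 8 weeks. Its 16-week and 8-week values lay under the brightest control with no target. The size of that bound is therefore uncertain, and no order of the 16-week and 8-week arrays is read. Rxrg, a retinoid X receptor of the family that pairs with Nr4a1 and Nr4a2, read 38.3 in the carcinoid, 59.0 at 16 weeks and 11.3 at 8 weeks. Its 8-week value was under the brightest control with no target, so no fold against it is given, and its other probe sets were under the floor on every array. Counts of this list were 1 higher and 1 lower for 16 against 8 weeks, 2 higher and 0 lower for carcinoid against 8 weeks, and 0 and 0 of 4 for carcinoid against 16 weeks. The higher genes were Rxrg in both comparisons against 8 weeks and Nab1 in the carcinoid, and the lower gene was Nr3c1. Their 8-week values all lay under the brightest control with no target, so these counts are uncertain.

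Genes known as targets of Egr1 lay on both sides. Of 22 listed, 17 were on the array, and by the 2-fold rule 1 of 12 was higher and 1 lower at 16 weeks than at 8 weeks, with a median log2 difference of 0.36. In the carcinoid, 1 of 11 was higher and 1 lower than at 8 weeks (median -0.14, or 0.29 as deposited), and 1 of 10 was higher and 1 lower than at 16 weeks (median -0.38). The adhesion receptor Icam1 was at least 3.05-fold lower in the carcinoid and at 16 weeks than at 8 weeks. The urokinase gene Plau read 39.1 in the carcinoid, 16.8 at 16 weeks and 6.7 at 8 weeks, of which only the carcinoid value was above the brightest control with no target. Tyrosine hydroxylase, Th, also a target of Nr4a2, read 9.9 in the carcinoid, 30.4 at 16 weeks and 11.1 at 8 weeks and was likewise above that control only at 16 weeks.

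Known targets of the Nr4a receptors were largely steroid-making and neuronal genes that lay near or under the floor. Of 18 listed, 14 were on the array, and 7, 7 and 8 had a value in the 3 comparisons. For 16 against 8 weeks 1 was higher and 2 were lower (median -0.27, or 0.19 as deposited). For carcinoid against 8 weeks 0 were higher and 1 was lower (median -0.37, or 0.14 as deposited), and for carcinoid against 16 weeks 0 were higher and 1 was lower (median -0.15). The secreted matrix protein gene Spp1 read 14.9 in the carcinoid, 12.3 at 16 weeks and 22.6 at 8 weeks. It was highest at 8 weeks, but every value lay under the brightest control with no target. The vesicular monoamine transporter Slc18a2, an ECL cell gene on both target lists, read 26.0 in the carcinoid, 45.5 at 16 weeks and 18.0 at 8 weeks. Nr4a2 U01146_s_at had the same order. The 8-week value of Slc18a2 lay under the brightest control with no target and was 1.07-fold from the carcinoid value after normalization. Its other probe set was under the floor on every array.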

How the data were processed

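RNA of 3 samples was measured on Affymetrix rat arrays, 1 per group, per the labels. The deposited table holds 1 linear intensity per probe set, made by the authors; the sources used here do not give its algorithm or scaling, and no detection calls were used. Rat probes met Mastomys RNA, so levels were compared across arrays within a probe set and not between probe sets. Gene symbols came from the platform annotation: of 8740 non-control probe sets, 7006 had 1 symbol, 308 several and 1426 none, and only the first were named. No promoter, transcript or protein sequence was used here.

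From the intensity, all 8799 probe sets were quantile-normalized, which hides a shift shared by most transcripts. Values under the floor of 12.4 were raised to it before log2. A gene was read by its brightest probe set (mean of the deposited values). The spread used the 2 brightest probe sets per gene: how far their log2 differences lay apart, as a root mean square over genes scaled to a single probe set. With 1 array per group there is no p-value, and the number of arrays limits the precision. The steps were tested on simulated data. Groups came from the sample descriptions.

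The 6 genes, the lists (other immediate early genes, upstream signalling, cofactors, Egr1 targets, Nr4a targets, other nuclear receptors, cell type markers) and the rules were chosen with earlier results of these data known. All 13 probe sets are named, with the 5 nearest profiles of Egr1 and Nr4a1 and, from the up to 4 genes per list and comparison with the largest differences, those a sentence needed; Cckbr, Slc18a2, Nab1 and the marker genes named were added from the lists as background. Comparisons share arrays, so their values are given side by side only. Alternatives were the values as deposited, scaling to a common median, floors of 4.2 (25th percentile) and 30.0 (75th percentile), adding the floor to each value before log2, and the median of a gene's probe sets. Python 3.11.15, numpy 2.4.6, pandas 2.3.3, scipy 1.17.1 and matplotlib 3.10.9 were used.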

Additional observations from a re-analysis of the deposited data

How the results depend on the processing

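No paired analysis was possible because each group had 1 array and no test was run. The count of Egr and Nr4a probe sets at least 2-fold higher at 16 weeks than at 8 weeks was 0. It became 1 as deposited (Nr4a2 U01146_s_at) and 3 with the floor at the 25th percentile. That for carcinoid against 8 weeks was 1, and became 2 as deposited, 3 with the floor at the 25th percentile and 0 with the floor at the 75th. The count at least 2-fold lower in the carcinoid than at 16 weeks was 0, and became 1 with the floor at the 25th percentile. The other counts of these probe sets stayed within 1.5 times under every alternative run. No difference of at least 2-fold turned its direction under the alternatives run. Of the 31 probe set differences, 5 moved by more than the spread with the floor at the 25th percentile and 3 of 21 with it at the 75th, and 0 with the other alternatives. Over all probe sets, those higher made up 51.7%, 51.2% and 49.2% of the 2-fold differences for 16 over 8 weeks, for the carcinoid over 8 weeks and for it over 16 weeks, and 77.4%, 81.1% and 55.8% as deposited. Counts of other immediate early genes at least 2-fold lower, 10 and 11 against 8 weeks, became 6 and 5 as deposited, and 6 and 5 with the floor at the 75th percentile. With log2 of the value plus the floor, the second became 7. Counts at least 2-fold higher among Egr1 targets (1) and other nuclear receptors (2) at 16 weeks against 8 weeks became 5 and 6 as deposited. The depth behind an intensity is unknown, and signal near the floor limits Egr2, Egr3 and Nr4a3.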

Other observations

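Egr4, a further Egr gene on the array, had 2 probe sets that differed. The probe set rc_AI144873_at read 37.9 in the carcinoid, 13.9 at 16 weeks and 39.8 at 8 weeks, and was 2.54-fold higher in the carcinoid than at 16 weeks and 3.97-fold lower at 16 weeks than at 8 weeks. Its order between 16 weeks and the other arrays was that of Nr4a1. The 16-week value lay under the brightest control with no target, so both folds are uncertain in size. The brighter rc_AI145177_f_at, of a kind shared by a gene family, read 140.9, 154.1 and 72.9 on the carcinoid, 16-week and 8-week arrays, and its normalized values were at most 1.41-fold apart.

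Other nuclear receptors, the superfamily of Nr4a1, had 30 of 36 listed genes on the array. For 16 against 8 weeks 2 of 21 were at least 2-fold higher and 4 lower, beside 14% higher and 12.9% lower over all genes. For carcinoid against 8 weeks 4 of 23 were higher and 3 lower, beside 14.6% and 13.7%, and for carcinoid against 16 weeks 3 of 21 were higher and 1 lower, beside 9.41% and 9.29%. Medians were -0.05, 0.08 and 0.07, and 0.38, 0.54 and 0.04 as deposited. The vitamin D receptor Vdr read 8.2 in the carcinoid, 12.7 at 16 weeks and 47.7 at 8 weeks, at least 5.13-fold lower in the carcinoid and at 16 weeks than at 8 weeks. The adipogenic receptor Pparg read 49.1 in the carcinoid, 9.9 at 16 weeks and 5.0 at 8 weeks, at least 3.46-fold higher in the carcinoid than on either other array. The clock repressor Nr1d1 read 48.7, 8.4 and 39.4 in that order of arrays, lowest at 16 weeks like Nr4a1, and its second probe set read 48.5, 15.8 and 23.6. The thyroid hormone receptor Thra, at 53.6 in the carcinoid, 162.0 at 16 weeks and 126.7 at 8 weeks, was 3.97-fold lower in the carcinoid than at 8 weeks (2.36-fold as deposited) and 3.18-fold lower than at 16 weeks (3.02-fold as deposited). Another Thra probe set, X12744_at, was 1.46-fold higher in the carcinoid than at 8 weeks. The retinoic acid receptor Rara, at 273.0 in the carcinoid, 419.3 at 16 weeks and 505.2 at 8 weeks, was 3.71-fold lower in the carcinoid than at 8 weeks, but 1.85-fold lower as deposited. Its probe set U15211_g_at ran the other way, at 20.3 in the carcinoid, 11.9 at 16 weeks and 7.2 at 8 weeks.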
